A study of Homo sapiens with 3 samples.

Results

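Among the cells sequenced on day 32 of a melanocyte differentiation, 110 carried neural genes and almost no pigment genes. They were chosen by measured values, namely 4 sums of unique molecular identifiers (UMIs) per 10000 UMIs of a cell. The pigment sum M (PMEL, MLANA, DCT and TYRP1) had to be under 5, and the neural sum N (NEFM, MSX2, ZIC1, ZIC2 and CRABP1) at least 5. N had to exceed the mesenchymal sum S (COL5A1, COL6A3, LUM, PRRX1, THBS1 and TGFBI), and the neurogenic sum P (HES6 and DLL3) had to stay under 10. The 110 cells were 1.83% of 6023 kept cells in the day 32 library (exact binomial 95% interval 1.50 to 2.20%, counting error only), out of 15630 kept cells in the 3 libraries. Here they are called the rule cells. Their scores, and every difference from cells set apart by the same scores, follow from that choice and are given as descriptions with no test.

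The study took 1 library each on day 23 (D23), day 32 (D32) and day 44 (D44) of induction from human pluripotent stem cells, so each level below stands for 1 library. The sample titles name induced pluripotent stem cells, while other fields of the same labels give the line as H9, which is of embryonic origin. All 3 cultures went from embryoid bodies to a medium with Wnt3a-conditioned medium, SCF, endothelin-3, cholera toxin, TPA, bFGF and dexamethasone. They were then plated on fibronectin and passaged without TPA and with serum, and the cells were frozen before the libraries were made. The cells of D32 and D44 were induced and sequenced together, and those of D23 apart from them, so day, induction and sequencing run cannot be told apart between D32 and D23.

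The neural crest forms at the border of the neural plate and the dorsal neural tube. ZIC, MSX and PAX3 factors act there before FOXD3 and SOX10. Crest cells then leave to form melanocytes, Schwann cells, peripheral neurons and facial mesenchyme. BMP and WNT ligands from the surface ectoderm and the roof plate of the neural tube set this dorsal fate. Retinoic acid and the HOX and engrailed genes mark positions along the head-to-tail axis. Crest cells that become melanocytes keep SOX10 and gain MITF, which switches on the pigment enzymes.

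The promoters of ZIC1, ZIC2 and MSX2, the 3 transcription factor genes of the rule, and of GDF10, the leading gene outside it, are shown because the report turns on these genes. Each line holds the 250 bases before the annotated start (RefSeq, GRCh38.p14, 5′ to 3′ on the plus strand), with GC boxes (GGGCGG or CCGCCC) and CCAAT boxes (CCAAT or ATTGG) in capitals, as found on both strands.
ZIC1: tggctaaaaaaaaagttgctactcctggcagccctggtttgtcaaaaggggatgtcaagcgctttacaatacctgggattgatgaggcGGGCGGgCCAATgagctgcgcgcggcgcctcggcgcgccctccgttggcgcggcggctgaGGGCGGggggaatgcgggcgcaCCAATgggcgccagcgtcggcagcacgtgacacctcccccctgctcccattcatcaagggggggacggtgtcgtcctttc
ZIC2: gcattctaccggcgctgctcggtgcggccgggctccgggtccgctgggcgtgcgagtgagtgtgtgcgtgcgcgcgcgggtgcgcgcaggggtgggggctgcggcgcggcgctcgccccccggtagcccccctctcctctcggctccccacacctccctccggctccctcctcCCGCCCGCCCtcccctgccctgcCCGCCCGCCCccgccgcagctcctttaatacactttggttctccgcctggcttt
MSX2: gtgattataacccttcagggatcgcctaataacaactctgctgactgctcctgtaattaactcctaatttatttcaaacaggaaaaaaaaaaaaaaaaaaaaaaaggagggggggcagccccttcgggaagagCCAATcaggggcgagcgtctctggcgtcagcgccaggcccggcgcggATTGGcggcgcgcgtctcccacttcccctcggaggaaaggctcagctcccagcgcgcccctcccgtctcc
GDF10: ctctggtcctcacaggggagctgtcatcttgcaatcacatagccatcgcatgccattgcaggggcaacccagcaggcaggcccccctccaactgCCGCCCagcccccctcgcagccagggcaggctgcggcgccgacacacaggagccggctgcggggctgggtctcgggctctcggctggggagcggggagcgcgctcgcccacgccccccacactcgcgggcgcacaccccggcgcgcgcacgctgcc
The ZIC1 stretch lies at chr3:147409115-147409364 and holds 2 GC boxes and 2 CCAAT boxes. The ZIC2 stretch, at chr13:99981534-99981783, is 75.6% G and C and holds 4 GC boxes, which overlap in pairs, and 0 CCAAT boxes. The MSX2 stretch, at chr5:174724332-174724581, has a run of A, 0 GC boxes and 2 CCAAT boxes on opposite strands. GDF10, at chr10:47299947-47300196, has 1 GC box and 0 CCAAT boxes. Over the same 250 bases of 34943 RefSeq promoters, 42.5% held a GC box and 32.0% a CCAAT box, so both motifs are common, and a match is a description and not a site.

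Each rule cell held between 10327 and 75689 UMIs (median 23425.5), against a median of 36621 in the 5913 other kept D32 cells. Pooled, the rule cells gave 2843080 UMIs, so that a gene with 0 UMIs could still lie at up to 1.06 CPM (counts per 1000000 pooled UMIs). The other kept cells were 5611 melanocyte-rule cells (M at least 5 and above N and S), 238 mesenchymal-rule cells (M under 5, S at least 5 and at least N), 1 neurogenic-rule cell and 63 unassigned cells. Mitochondrial genes took a median of 5.19% of UMIs in rule cells, against 4.98% in the other kept cells and 2.88% in mesenchymal-rule cells. None of the 110 rule cells was among the 638 of 8927 barcodes called doublets, and none shared its barcode with another library (16 barcodes were shared by D23 and D32, and 28 by D32 and D44).

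The neural score separated the rule cells widely from their limit, and the pigment score did not. N ran from 7.23 to 256 per 10000 UMIs (median 51.7), 102 of the 110 cells had an N of at least 20, and 77 held UMIs of all 5 N genes. S had a median of 2.12 (highest 13.9), M of 1.16 (highest 4.94) and P of 0 (highest 4.20). No kept cell missed the rule on N alone, 2 cells missed it on N against S alone, and the single neurogenic-rule cell, with a P of 139, missed it on P alone. By contrast, 62 cells met every limit but M, the nearest with an M of 5.02. Those 62 cells had a median M of 46.1, a median N of 32.0 and a median of 52789.5 UMIs, and 19 of them were called doublets, so cells with both neural and pigment UMIs sat outside the rule and were deeper than the cells inside it.

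**Figure D1:**
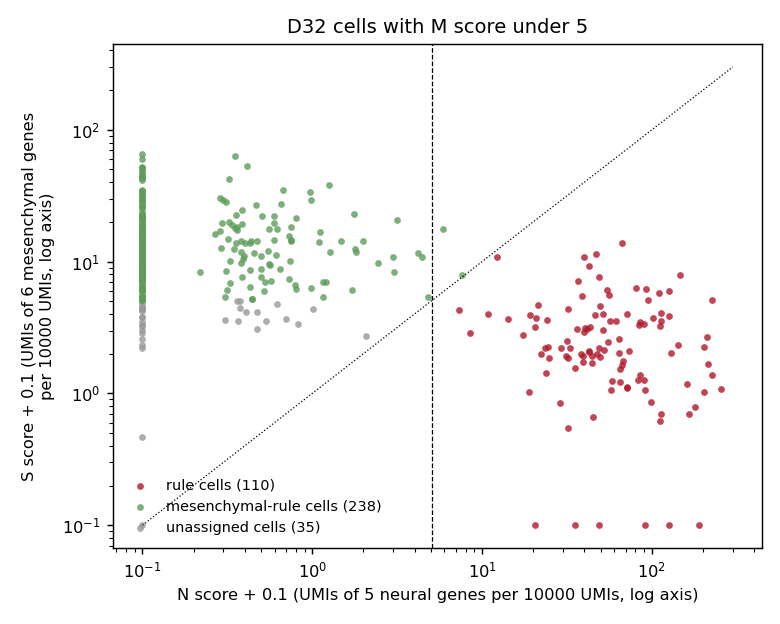
Mesenchymal score S against neural score N, both per 10000 UMIs with 0.1 added and on log axes, for D32 cells with M under 5. Each point is 1 cell, the dashed vertical line is the limit of N and the dotted line marks N equal to S. The 110 rule cells lie from 7.23 to 256 on N, and few points lie near the corner where both lines meet.

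The 5 genes given as markers of these cells were all far above the rest of the library, although 3 of them were part of the rule. MSX2, a homeobox factor of the dorsal neural folds, stood at 379 CPM in rule cells (Poisson 95% interval 357 to 402) against 3.08 CPM in the other kept cells, and 108 of 110 cells held a UMI. ZIC1, a zinc finger factor of the neural plate border, stood at 176 CPM (161 to 192) against 1.34 CPM, also with UMIs in 108 cells. CRABP1, a cytosolic retinoic acid binding protein, was the most abundant rule gene, at 5729 CPM against 53.0 CPM, with a median of 39.4 UMIs per 10000 in a cell. Both markers outside the rule behaved alike: NTRK2, the receptor of BDNF, stood at 95.3 CPM against 0.73 CPM (log2 ratio 5.80), and RGS5, a regulator of G protein signalling known from pericytes, at 117 CPM against 1.84 CPM (log2 ratio 5.38). These ratios add 1 CPM to both levels, here and below. ZIC1 and MSX2, both of which chose the cells, had UMIs together in 107 of the 110 cells as deposited and in 52 after thinning each cell to 5000 UMIs, when 16 held ZIC1 alone, 32 MSX2 alone and 10 neither.

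Other ZIC genes were also high in rule cells. ZIC2, the remaining zinc finger gene of the rule, stood at 115 CPM against 1.06 CPM in the other kept cells, while ZIC4 stood at 79.5 CPM against 0.69 CPM and ZIC5 at 16.9 CPM against 0.23 CPM. These genes thus followed the pattern of ZIC1. ZIC1 and ZIC4 lie head to head on chromosome 3 with annotated spans that overlap by 13388 bases on opposite strands, and the sources used here do not give whether counting used the strand, so reads of the shared stretch could be split between them in an unknown way. ZIC2 and ZIC5 lie 10016 bases apart on chromosome 13.

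Across all genes, 9120 reached 10 CPM in rule cells or in the other kept D32 cells, and 839 of them (9.20%) differed by at least 4-fold, 562 of them higher in rule cells (6.16%) and 277 lower (3.04%). The median log2 ratio over all of them was 0.03. These shares are the background for the list counts that follow. No list count carries a test, because the cells were picked on their expression and came from 1 library.

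The label neural crest-like was only partly met. Several crest factors were at or near 0 in rule cells: SOX10 stood at 0.70 CPM against 85.2 CPM in the other kept cells, FOXD3 at 1.06 CPM against 31.0 CPM and TFAP2B at 1.06 CPM against 34.7 CPM. TFAP2A stood at 9.50 CPM against 206 CPM, and ETS1 at 23.9 CPM against 115 CPM. NGFR, a surface receptor of migrating crest, had UMIs in 1 cell, and PAX7 in none. Other crest genes were present: PAX3 (37.3 CPM against 53.4 CPM), SNAI2 (91.8 CPM against 116 CPM), SOX9 (43.6 CPM against 6.23 CPM) and the mesoderm and crest factor TWIST1 (72.1 CPM against 7.60 CPM). PAX3 is also a dorsal neural tube gene, and in mesenchymal-rule cells it stood at 1.05 CPM. Of 32 neural crest genes listed, 23 reached 10 CPM in either group, of which 10 were at least 4-fold higher in rule cells and 7 at least 4-fold lower. Without the rule genes MSX2, ZIC1 and ZIC2 these counts were 7 and 7 of 20. Compared with mesenchymal-rule cells, 6 of 15 crest genes outside the rule were at least 4-fold higher and 0 lower (median log2 ratio 0.97). The cells are therefore named by their rule and their leading genes, ZIC1, MSX2 and CRABP1, and not as a crest stage.

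**Figure D2:**
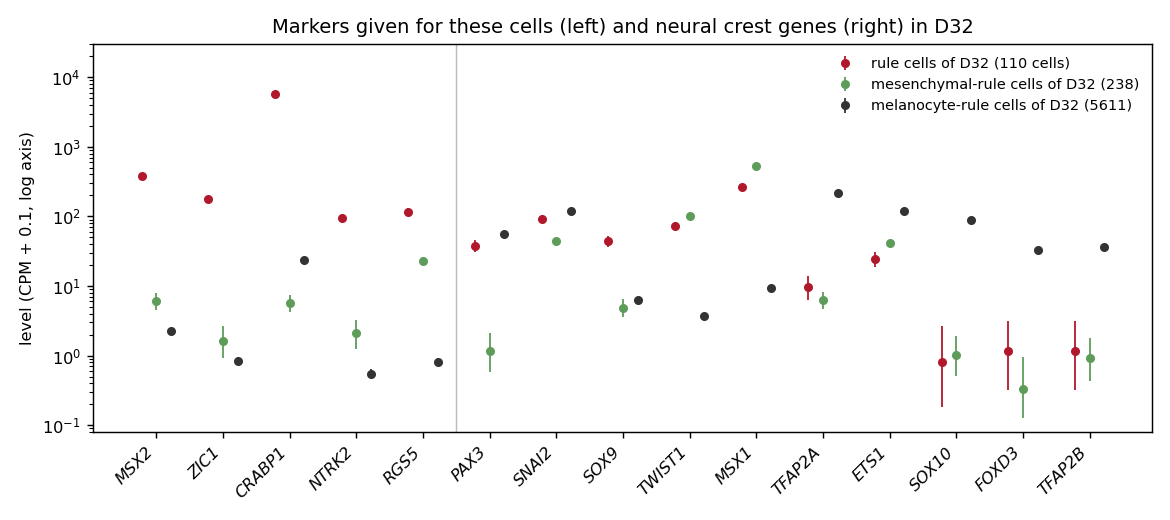
Levels in D32 (CPM with 0.1 added, log axis) of the 5 genes given as markers, left of the line, and of 10 neural crest genes, right of it. Points are pooled levels of 110 rule cells, 238 mesenchymal-rule cells and 5611 melanocyte-rule cells, with Poisson 95% intervals. Rule cells are highest for the 5 markers, and their SOX10, FOXD3 and TFAP2B levels are near 1 CPM, far below melanocyte-rule cells.

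Outside the rule, GDF10, DLK1 and IFITM1 were furthest above the other cells among genes of at least 50 CPM seen in at least 25% of rule cells. GDF10, a secreted factor of the BMP group, had a log2 ratio of 6.87. It stood at 314 CPM in rule cells (294 to 335) against 1.69 CPM in the other kept cells. DLK1, an imprinted Notch-related transmembrane protein, stood at 1067 CPM against 8.35 CPM. Cells differed widely for both, since the 5 cells with most DLK1 held 39.0% of its UMIs and 85 of 110 cells held a GDF10 UMI. Next came IFITM1, an interferon-induced membrane protein with close paralogs whose reads may be shared (644 CPM against 5.64 CPM), BAALC, a brain-expressed gene (351 CPM against 2.93 CPM), the adhesion receptor ADGRL4 (239 CPM against 1.83 CPM) and IGFBPL1, a secreted protein (161 CPM against 1.21 CPM).

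Several genes of this top set have other tissues as their usual home. GZMA, a protease of cytotoxic lymphocytes, stood at 66.5 CPM against 0.34 CPM, with UMIs in 50 cells, although PTPRC, which marks blood cells, had 0 UMIs. ALOX5AP, which serves leukotriene synthesis, stood at 70.0 CPM against 0.44 CPM, but 78.9% of its UMIs came from 5 cells. DES, the muscle intermediate filament desmin, stood at 57.7 CPM against 0.60 CPM and PAX8, a factor of the midbrain-hindbrain border, inner ear, kidney and thyroid, at 64.7 CPM against 0.43 CPM. UMIs of DES occurred in 38 cells and of PAX8 in 56. Most ALOX5AP UMIs thus came from few cells, although 16, 6 and 6 cells of groups A, B and C, described below, held some. GZMA, DES and PAX8 are given here by cells with a UMI, which is another measure.

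Pigment cell genes were among those furthest below the other cells. Of 19 compared melanocyte genes, 16 were at least 4-fold lower in rule cells and 0 higher, or 12 of 15 lower without PMEL, MLANA, DCT and TYRP1, which the rule held low. PMEL, the melanosome fibre protein, stood at 102 CPM in rule cells against 4690 CPM in the other kept cells, TYR, the enzyme that starts melanin synthesis, at 1.76 CPM against 231 CPM and MITF, the master factor of the lineage, at 9.15 CPM against 327 CPM. BCAN, a brain proteoglycan, had 0 UMIs against 95.8 CPM, which put it at least 90.7-fold lower (floor of 3 UMIs over the group). Expressed as a share of the level in melanocyte-rule cells, MLANA stood at 1.43% in rule cells and at 0.86% in mesenchymal-rule cells, TYRP1 at 0.95% and 0.93%, and DCT at 0.64% and 0.48%. PMEL stood at 2.08% and 1.01%. These 4 genes make up M, which had to be under 5 in both classes.

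Thinned to 5000 UMIs each, 36.4% of rule cells held a PMEL UMI against 99.98% of melanocyte-rule cells (median depths before thinning 23425.5 and 36806 UMIs), and 0% held a TYR UMI (exact binomial upper limit at that depth 3.30%) against 59.2%. As deposited, 5 of the 110 rule cells held a TYR UMI. In the other direction, GDF10 UMIs were in 52.7% of thinned rule cells against 0.27% of thinned melanocyte-rule cells, and EN2 UMIs in 36.4% against 0.36%. S100B, a calcium binding protein of glia and melanocytes, was 1 of the 3 compared melanocyte genes within 4-fold, with PAX3 and KIT. S100B stood at 430 CPM in rule cells (406 to 455) against 426 CPM in melanocyte-rule cells and 7.01 CPM in mesenchymal-rule cells, with UMIs in 103 of 110 rule cells. After thinning, 77.3% of rule cells, 77.0% of melanocyte-rule cells and 3.36% of mesenchymal-rule cells held an S100B UMI, so the share differed widely between classes of like depth (mesenchymal-rule median 34470.5 UMIs).

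BMP signalling genes were uneven. Of 36 listed BMP and TGF-beta genes, 23 were compared, 9 were at least 4-fold higher in rule cells and 1 lower, with a median log2 ratio of 1.46. The targets that answer BMP receptors led: ID1, an inhibitor of basic helix-loop-helix factors, stood at 1299 CPM against 27.6 CPM in the other kept cells, with UMIs in 107 cells. ID3 stood at 911 CPM against 75.5 CPM, and ID2 at 190 CPM against 12.5 CPM. Among ligands, BMP5 stood at 32.4 CPM against 0.99 CPM and BMP7 at 25.7 CPM against 2.54 CPM, while BMP4 stood at 12.7 CPM against 25.2 CPM, below the limit of 4-fold. The extracellular inhibitors CHRD (14.1 CPM against 0.20 CPM) and GREM1 (19.3 CPM against 1.29 CPM) were higher too. The receptors BMPR1A (25.7 CPM against 12.7 CPM) and BMPR2 (35.5 CPM against 53.2 CPM) lay within 4-fold. NBL1, another extracellular inhibitor, was the 1 lower gene, at 14.4 CPM against 77.2 CPM. Against mesenchymal-rule cells, 26 genes of this list were compared, of which 3 were at least 4-fold higher in rule cells and 3 lower. Their median log2 ratio was -0.06, so as a list these genes were not particular to rule cells.

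The roof plate itself was not seen in full. Of 20 listed genes of the roof plate and dorsal neural tube, 9 were compared and 7 were at least 4-fold higher, among them GDF10, BMP5, the WNT agonist RSPO3 (29.9 CPM against 0.71 CPM) and the guidance protein DRAXIN (14.8 CPM against 0.20 CPM). WNT1 and RSPO1 had 0 UMIs, WNT3A had UMIs in 1 cell, OLIG3 in 2 and LMX1A, which specifies the roof plate, in 4. GDF7, a roof plate ligand, stood at 1.41 CPM. Genes that define the roof plate were thus at or near 0, next to 7 listed genes that were high. With mesenchymal-rule cells as the reference, 9 genes of this list were compared, of which 4 were at least 4-fold higher and 1 lower.

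WNT pathway genes held mostly receptors, secreted inhibitors and feedback genes. Of 54 listed, 19 were compared, of which 10 were at least 4-fold higher in rule cells and 0 lower. SFRP2, which binds WNT ligands outside the cell, stood at 61.6 CPM against 0.92 CPM in the other kept cells. AXIN2, the usual readout of beta-catenin signalling, stood at 47.1 CPM against 4.42 CPM, the receptor FZD6 at 41.9 CPM against 5.14 CPM, the inhibitor FRZB at 64.0 CPM against 5.87 CPM and the ligand WNT3 at 15.8 CPM against 1.32 CPM. LEF1, the nuclear partner of beta-catenin, was alike in both groups (17.2 CPM against 17.4 CPM). Against mesenchymal-rule cells, 27 WNT pathway genes were compared, of which 5 were at least 4-fold higher in rule cells and 5 lower. Their median log2 ratio was -0.35, so the excess over the other kept cells was not particular to rule cells.

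Genes of the midbrain-hindbrain border and of the hindbrain were both found in rule cells. All 9 compared genes of the 16 listed for the head were at least 4-fold higher in rule cells, and the other 7 did not reach 10 CPM in either group. EN2, an engrailed factor of the midbrain and anterior hindbrain, stood at 110 CPM (98.2 to 123) against 0.93 CPM, with UMIs in 65 cells. GBX2, which marks the hindbrain side of that border, stood at 10.6 CPM against 0.08 CPM, and IRX2, a factor of the posterior neural plate, at 143 CPM against 7.23 CPM. OTX2 and EMX2, which mark the forebrain and midbrain, had 0 UMIs. Of the HOX genes, HOXB2, whose anterior limit lies in the hindbrain, stood at 71.0 CPM against 10.2 CPM and HOXB3 at 15.5 CPM against 1.50 CPM. EN2 and HOXB2 UMIs were in the same cell in 35 cases, EN2 without HOXB2 in 30, HOXB2 without EN2 in 35 and neither in 10. Of 39 HOX genes 5 were compared, and 13 had 0 UMIs. The trunk genes HOXB8 and HOXB9 were confined to 7 and 8 cells, with 7 cells holding both. For the head list, 9 genes were also compared with mesenchymal-rule cells. Of these, 5 were at least 4-fold higher in rule cells, 0 lower and 4 within 4-fold (lowest log2 ratio 0.12). Part of the head list was thus not particular to rule cells.

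Retinoic acid genes were led by CRABP1 but were not limited to it. Of 12 compared, 6 were at least 4-fold higher in rule cells, or 5 of 11 without CRABP1. NR2F1, a nuclear receptor induced by retinoic acid in neural cells, stood at 485 CPM against 23.2 CPM, with UMIs in 107 cells, and NR2F2 at 319 CPM against 36.4 CPM. CRABP2 stood at 73.2 CPM against 7.58 CPM, and STRA6, which carries retinol into cells, at 23.9 CPM against 2.84 CPM. CYP26A1, which degrades retinoic acid, stood at 19.3 CPM but had UMIs in only 4 cells, so its level describes those cells. RXRG, a retinoid receptor of the melanocyte and glial lineages, had 0 UMIs against 13.2 CPM. Set against mesenchymal-rule cells, 3 of 11 compared retinoic acid genes were at least 4-fold higher in rule cells and 0 lower. Without CRABP1 2 of 10 were higher, and the median log2 ratio was 0.15. Apart from CRABP1, most of the list was thus not particular to rule cells.

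Genes of neural progenitors and of neurons were both found in rule cells, unevenly within each list. Of 12 progenitor genes compared, 5 were at least 4-fold higher in rule cells and 1 lower, or 5 and 0 of 10 without the rule genes HES6 and DLL3. SOX2, a neural stem cell factor, stood at 78.4 CPM against 11.7 CPM, and the POU factors POU3F2 (121 CPM against 0.97 CPM) and POU3F3 (46.1 CPM against 0.26 CPM) were far apart as well. PAX6 and SOX3 had 0 UMIs, and SOX1 and HES5 each had UMIs in 2 cells. Of 11 compared neuron genes 5 were at least 4-fold higher and 0 lower, or 4 of 10 higher without NEFM of the rule, among them the growth cone protein GAP43 (62.6 CPM against 2.47 CPM) and the adhesion molecule NCAM1 (39.4 CPM against 5.60 CPM). The neurofilament NEFL (235 CPM against 60.9 CPM), the tubulin TUBB3 (393 CPM against 465 CPM) and the ubiquitin hydrolase UCHL1 (602 CPM against 392 CPM) were abundant in both groups and lay within 4-fold. ELAVL4, an RNA binding protein of neurons, had 0 UMIs, ELAVL3 had UMIs in 2 cells and DCX, a microtubule protein of young neurons, stood at 4.92 CPM. Of the axon guidance genes, 16 of 25 compared were at least 4-fold higher and 2 lower. They covered ligands and receptors alike, such as SLIT2 (51.0 CPM against 0.76 CPM), EFNB2 (113 CPM against 3.87 CPM), EPHA7 (26.0 CPM against 0.41 CPM) and PLXNA2 (34.1 CPM against 3.30 CPM). The 2 lower genes were SEMA6A (15.5 CPM against 94.9 CPM) and PLXNA1 (13.4 CPM against 57.7 CPM). In the comparison with mesenchymal-rule cells, 5 of 9 progenitor genes outside the rule were at least 4-fold higher in rule cells and 0 lower. Among 11 neuron genes outside the rule, 3 were higher there and 1 lower, with a median log2 ratio of -0.14. Among 27 axon guidance genes, 8 were higher and 1 lower, with a median log2 ratio of 1.10.

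Cadherins differed between the classes in both directions. CDH6, a cadherin of the neural folds and early crest, stood at 219 CPM in rule cells against 2.20 CPM in the other kept cells, and N-cadherin CDH2 at 81.2 CPM against 15.7 CPM. CDH3, the placental cadherin, stood at 1.41 CPM against 92.3 CPM, and CDH19, a cadherin of Schwann cell precursors, at 0.35 CPM against 42.3 CPM. E-cadherin CDH1 had 0 UMIs against 6.51 CPM. Of 13 cadherin genes compared, 10 were at least 4-fold higher and 2 lower. Of 37 matrix genes, 14 were higher and 1 lower (12 and 1 of 35 without COL5A1 and COL6A3 of the score S). Tenascin TNC (111 CPM against 6.05 CPM), the growth factor PTN (226 CPM against 9.30 CPM) and the proteoglycan GPC4 (74.6 CPM against 2.86 CPM) were among those higher, while fibronectin FN1 was not (137 CPM against 189 CPM). Against mesenchymal-rule cells, 38 matrix genes were compared, of which 3 were at least 4-fold higher in rule cells and 7 lower. Their median log2 ratio was -0.62. Of 12 cadherin genes compared with mesenchymal-rule cells, 5 were at least 4-fold higher in rule cells and 1 lower.

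Receptor tyrosine kinases and their ligands also differed both ways. Of 16 compared, 8 were at least 4-fold higher in rule cells, with NTRK2 first, then PDGFB (29.2 CPM against 0.65 CPM), a ligand, and EGFR (27.4 CPM against 2.18 CPM). ERBB3 (2.46 CPM against 64.9 CPM), the neuregulin receptor of crest and Schwann cells, and MET (1.06 CPM against 25.3 CPM) were lower. KIT, the SCF receptor of melanocytes, stood at 13.7 CPM against 38.0 CPM. Genes of the cell cycle showed no such split. Of 20 G2 and M phase genes and 18 S phase genes compared, none was 4-fold apart, and their summed levels were 1804 CPM against 1838 CPM and 1048 CPM against 1305 CPM. Against mesenchymal-rule cells, 19 genes of the receptor tyrosine kinase list were compared. Of these, 1 was at least 4-fold higher in rule cells and 3 were lower, with a median log2 ratio of -0.006.

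**Figure D3:**
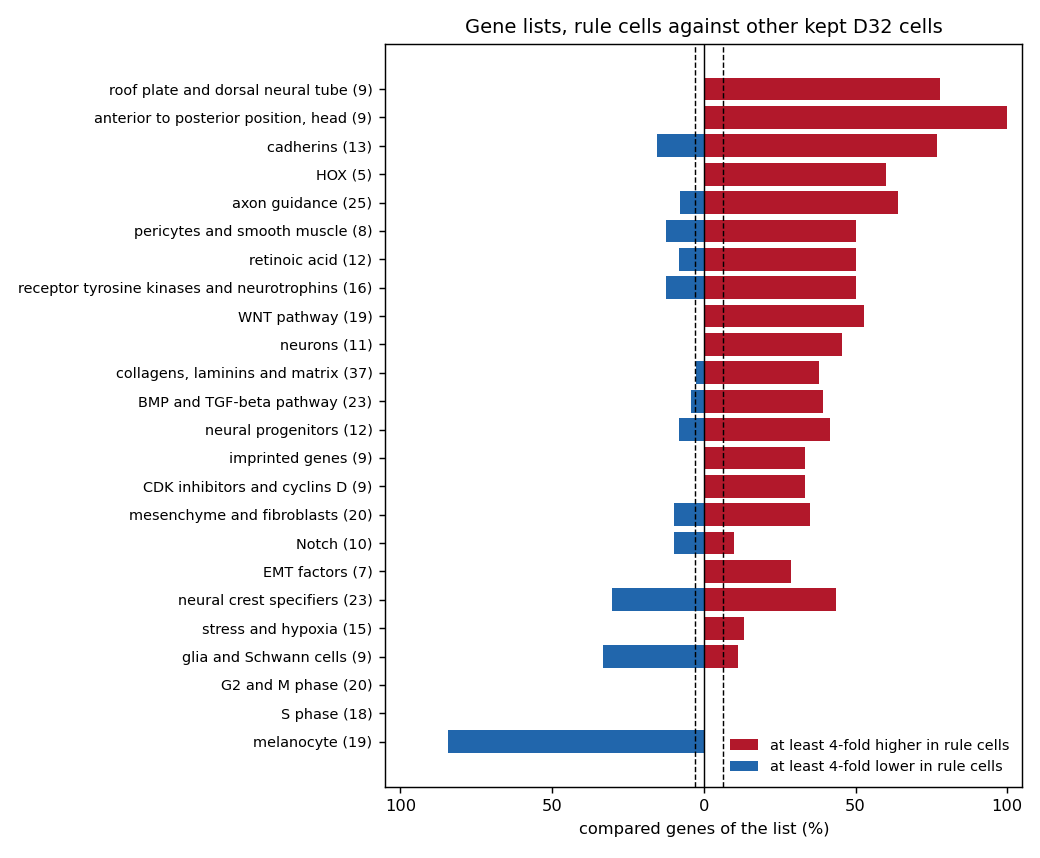
Share of compared genes per list that were at least 4-fold higher (right) or lower (left) in rule cells than in other kept D32 cells. Rows are lists with at least 5 compared genes (number in brackets), ordered by median log2 ratio, and dashed lines mark the shares over all 9120 genes (6.16% and 3.04%). All 9 head position genes are higher, and 16 of 19 melanocyte genes are lower.

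RGS5 was high in rule cells, while the genes that define pericytes were split. Of the 8 compared genes of pericytes and smooth muscle, RGS5, DES, ACTA2 (59.1 CPM against 4.95 CPM) and TAGLN (436 CPM against 47.8 CPM) were at least 4-fold higher and MCAM was lower (3.17 CPM against 69.1 CPM). Several genes that define pericytes were near or at 0: PDGFRB stood at 3.87 CPM and KCNJ8 at 1.41 CPM, and ABCC9 and MYH11 had 0 UMIs. NOTCH3, also a pericyte gene, stood at 14.6, 29.3 and 9.71 CPM in groups A, B and C of the rule cells, described below. Its UMIs were in 15, 19 and 4 cells of these groups. TAGLN was uneven, with 63.9% of its UMIs in 5 cells. RGS5 UMIs were in 75 of 110 cells, so its level was not that of a few. When 10 genes of this list were compared with mesenchymal-rule cells, 2 were at least 4-fold higher in rule cells and 4 lower. The median log2 ratio in that comparison was -0.98.

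Compared with the 238 mesenchymal-rule cells of the same library, which also lacked pigment genes, 584 of 8977 genes (6.51%) were at least 4-fold apart, 349 of them higher in rule cells (3.89%) and 235 lower (2.62%). Mesenchymal-rule cells had limb and posterior genes that rule cells lacked: PITX1, a hindlimb factor, stood at 1.76 CPM in rule cells against 361 CPM in mesenchymal-rule cells, HOXA10 at 2.81 CPM against 134 CPM and HOXA13 at 0.70 CPM against 72.0 CPM. Of 9 HOX genes compared, 0 were at least 4-fold higher in rule cells and 4 lower. The keratins KRT8 (87.2 CPM against 1844 CPM), KRT18 (104 CPM against 2761 CPM) and KRT19 (2.81 CPM against 272 CPM) and the ligand BMP4 (12.7 CPM against 436 CPM) were lower as well. FLT1, a VEGF receptor, had 0 UMIs in rule cells against 111 CPM. Of 23 mesenchyme genes compared, 12 were at least 4-fold lower in rule cells and 1 higher (9 lower and 1 higher of 17 without rule genes), with a median log2 ratio of -2.15. COL1A2 was among the 10 within 4-fold (837 CPM against 848 CPM). GDF10 (314 CPM against 1.28 CPM), DLK1 (1067 CPM against 2.10 CPM), POU3F2 (121 CPM against 0.12 CPM) and EN2 (110 CPM against 0 UMIs) were far higher in rule cells in this comparison too. As a whole, the 20 mesenchyme genes compared with the other kept cells summed to 9143 CPM in rule cells against 6435 CPM. The 23 compared with mesenchymal-rule cells summed to 9146 CPM against 13494 CPM. Both sums hold 6 genes of the score S, and VIM, an intermediate filament protein, made up much of each (5529 CPM in rule cells against 5220 CPM in the other kept cells and 5252 CPM in mesenchymal-rule cells). Of the 20 genes compared with the other kept cells, 7 were at least 4-fold higher in rule cells and 2 lower. Without rule genes these counts were 5 and 2 of 14. Defining mesenchyme genes were split. DCN stood at 1.06 CPM in rule cells and PDGFRA at 1.41 CPM. COL1A1 stood at 239, 292 and 196 CPM in groups A, B and C of the rule cells, which are described below. COL3A1 stood at 219, 320 and 62.1 CPM in these groups.

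The same rule picked 631 of 3795 kept cells in D23 (16.6%), 110 of 6023 in D32 (1.83%) and 5 of 5812 in D44 (0.086%). The share was thus highest in D23 and lowest in D44, with 1 library a day and, between D23 and D32, another induction and another depth. The D32 rule cells had a median of 23425.5 UMIs against 14282 UMIs in D23, and D44 added only 184422 UMIs in all, so a gene with 0 UMIs there could lie at up to 16.3 CPM. In rule cells of D23, D32 and D44, ZIC1 stood at 291, 176 and 168 CPM, MSX2 at 430, 379 and 358 CPM, CRABP1 at 2124, 5729 and 515 CPM, and NEFM at 2979, 521 and 157 CPM. All 4 genes belong to the score that picked the cells on each day, so these levels are a description only. NEFM, a neurofilament, was highest in D23, and CRABP1 in D32.

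Of 9241 genes compared between D32 and D23 rule cells, 266 (2.88%) were at least 4-fold apart, 119 of them higher in D32 (1.29%) and 147 lower (1.59%). Among genes at 50 CPM or more, EN2 came after NPY alone: it stood at 110 CPM in D32 against 2.22 CPM in D23 (log2 ratio 5.11), and 249 CPM in D44. GDF10 stood at 314 CPM in D32 against 16.8 CPM in D23, DLK1 at 1067 CPM against 61.7 CPM and PAX8 at 64.7 CPM against 3.06 CPM. ID1 stood at 1299 CPM against 86.4 CPM and ID3 at 911 CPM against 77.3 CPM, whereas ID2 stood at 190 CPM against 366 CPM. The chemokine CCL2 stood at 279 CPM against 17.7 CPM, and the Schwann cell and myelin genes S100B (430 CPM against 64.3 CPM) and PMP22 (215 CPM against 35.4 CPM) were also higher. NPY, a neuropeptide, had the largest ratio (111 CPM against 0.11 CPM), but 77.6% of its UMIs came from 5 cells.

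Other classes of cell showed the same contrast between libraries for part of these genes. Between D32 and D23, the log2 ratio of ID1 was 3.89 in rule cells, 1.69 in melanocyte-rule cells and 0.93 in mesenchymal-rule cells. PSMB8, an immunoproteasome subunit, had ratios of 4.46, 3.01 and 1.63, in the same direction in all 3 classes. DLK1, EN2, GDF10 and PAX8 did not reach 10 CPM in the other classes of D32. In melanocyte-rule and mesenchymal-rule cells DLK1 stood at 4.61 and 2.10 CPM, EN2 at 0.73 CPM and 0 UMIs, GDF10 at 0.87 and 1.28 CPM and PAX8 at 0.36 and 0.70 CPM, too low for a ratio between days to be read there. The differences between classes for ID1 and PSMB8 were not tested, with 1 library a day.

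Among the genes lower in D32 rule cells than in D23 rule cells were SOST, TTR, OTX2 and CNTNAP2. SOST, a WNT and BMP inhibitor, stood at 0.70 CPM in D32 against 87.4 CPM in D23, the neuropeptide CCK at 0.35 CPM against 68.7 CPM and TTR, the transthyretin of choroid plexus, at 0 UMIs against 62.9 CPM. The forebrain and midbrain factor OTX2 had 0 UMIs against 26.9 CPM, and EMX2 0 UMIs against 10.6 CPM. The roof plate ligand GDF7 stood at 1.41 CPM against 29.1 CPM. CNTNAP2, a neurexin-family adhesion protein, stood at 41.5 CPM against 424 CPM. Of 11 neuron genes compared, 2 were at least 4-fold lower and 0 higher, namely NEFM of the rule and GAP43 (62.6 CPM against 278 CPM), and of 29 axon guidance genes 3 were lower and 1 higher. Head position genes split, with EN2 and IRX5 (21.5 CPM against 2.22 CPM) at least 4-fold higher and OTX2 and EMX2 at least 4-fold lower, out of 11 compared.

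**Figure D4:**
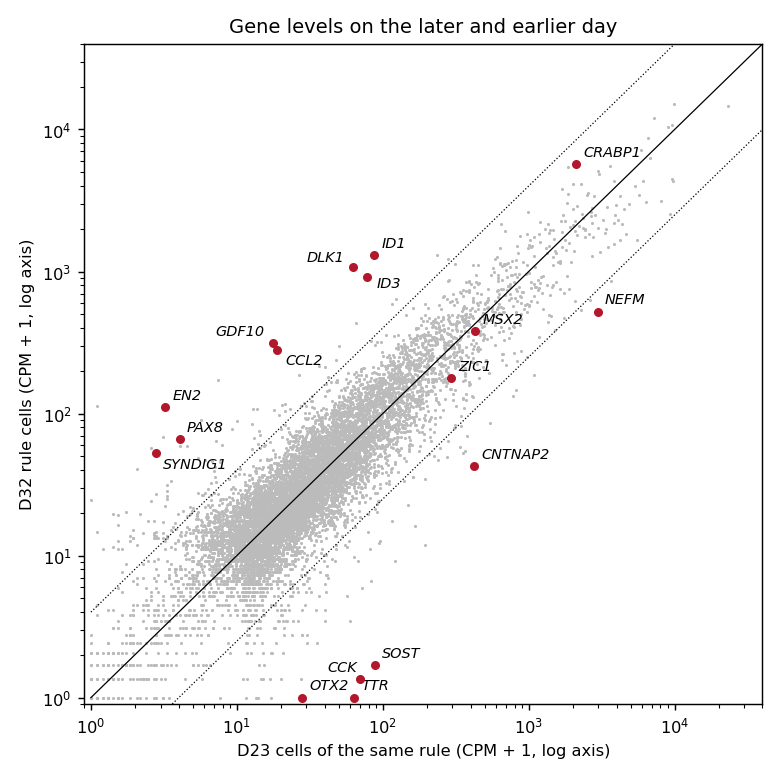
Level of each gene that reached 10 CPM in any group compared, in D32 rule cells (vertical) against D23 rule cells (horizontal), in CPM with 1 added, on log axes. Grey points are these genes, red points are named genes, the solid line marks equal levels and the dotted lines 4-fold differences. EN2, GDF10, DLK1, ID1 and ID3 lie above the upper dotted line, OTX2, TTR, CCK, SOST and NEFM below the lower one, and ZIC1 and MSX2 between them.

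Clustering of the rule cells alone gave 3 groups, which are described by leading genes and were not tested. Group A held 59 cells and group B 36, with medians of 22760 and 22042 UMIs, and group C held 15 cells with a median of 32581 UMIs. Group C was set apart by mitotic genes: PLK1, a mitotic kinase, stood at 171 CPM in group C against 3.01 CPM in the rest, and UBE2C, a ubiquitin carrier of mitosis, at 1414 CPM against 39.9 CPM. Its 20 G2 and M phase genes summed to 7795 CPM, against 914 CPM in group B and 210 CPM in group A. S phase genes summed to 1773 CPM in group B, 1653 CPM in group C and 407 CPM in group A. Group A thus held little of either set, and group B held S phase genes.

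GDF15, DLK1 and IFIT1 were among the genes leading group A. GDF15, a stress-induced cytokine, stood at 153 CPM in group A against 29.2 CPM in the other rule cells, the cell cycle inhibitor CDKN1A at 120 CPM against 30.7 CPM, DLK1 at 1705 CPM against 412 CPM and IFIT1, an interferon-induced gene, at 89.5 CPM against 34.2 CPM. EN2 stood at 151 CPM in group A, 65.4 CPM in group B and 73.8 CPM in group C, with UMIs in 40, 18 and 7 cells. In group B, RSPO3 stood at 83.4 CPM against 5.62 CPM in the other rule cells, with UMIs in 17 of 36 cells, the opioid precursor PENK at 87.9 CPM against 1.53 CPM, with UMIs in 7 of the 36, and the Notch-like DNER at 55.2 CPM against 5.11 CPM. CYP26A1 and the matrix protein HAPLN1 also led group B, but each rested on 3 of its cells, and no cell held both. The rule genes ran through all groups: ZIC1 stood at 170, 193 and 163 CPM in groups A, B and C, and MSX2 at 448, 354 and 229 CPM.

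**Figure D5:**
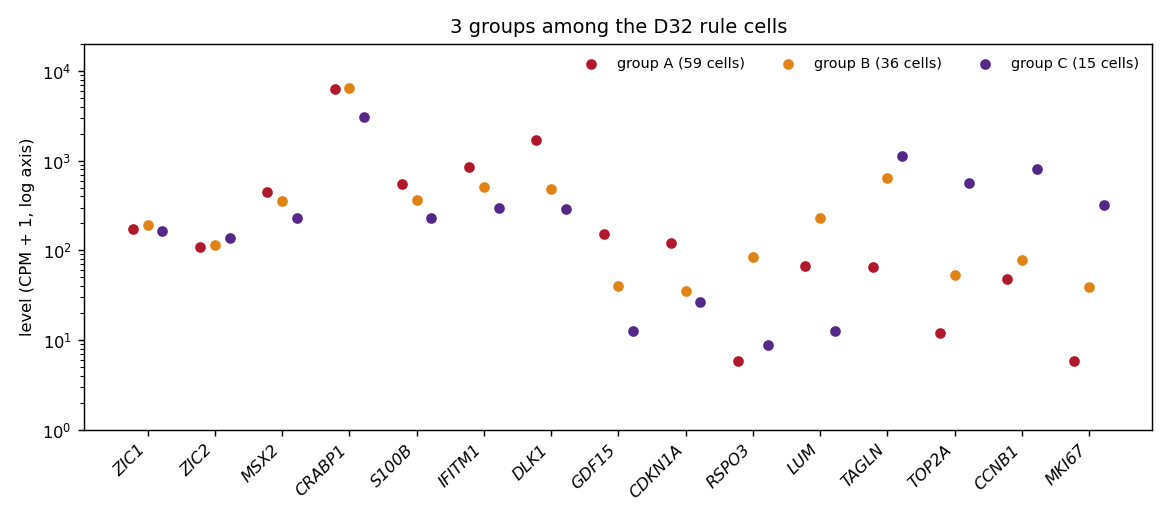
Pooled levels (CPM with 1 added, log axis) of 15 genes in 3 groups of rule cells found by clustering them alone, with 59, 36 and 15 cells. Points stand for 1 group each, and no interval is drawn. ZIC1 and ZIC2 are nearly level, DLK1, GDF15 and CDKN1A are highest in group A, RSPO3 and LUM in group B, and TOP2A, CCNB1 and MKI67 in group C.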

How the data were processed

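Single cells of 1 library per day were measured. Per the labels, UMI counts came from Cell Ranger 6.1.2 on hg38, and the count matrices were used as the authors deposited them. Cells were kept at the study's limits: under 10% mitochondrial UMIs, 3000 to 9000 genes and under 100000 UMIs in D32 and D44, 1000 to 7000 genes and under 50000 UMIs in D23. Raw counts were summed over cells of a class into CPM, with exact Poisson intervals (counting error only). Genes at 10 CPM or more in either group were compared by log2 ratio after adding 1 CPM, and 4-fold was the limit. The members and the 30 gene lists were chosen with earlier results of these data known, so no test was run.

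Named genes were those of the rule and of the marker list, the 30 highest and 20 lowest against other D32 cells, listed genes at least 2-fold apart or at or near 0 where defining, and the 15 highest and lowest in the other 2 comparisons, plus the leading genes of each group of rule cells. LEF1, FN1, BMPR1A, BMPR2, TUBB3, UCHL1 and VIM were named after their values were seen. Doublets were scored by a Scrublet-type simulation (30 components, expected share 0.8% per 1000 barcodes) and left in. Louvain clustering used 1500 variable genes, 15 components, 10 neighbours, resolution 0.5 and seed 1 (scanpy 1.11.5, igraph 0.11.9). The other steps ran in Python 3.11.15 with scikit-learn 1.9.0, pandas 2.3.3, scipy 1.17.1 and numpy 2.4.6 and were tested on simulated data. Alternatives covered doublets, thinning to 5000 UMIs, the limits of the rule, cell weights, size factors, the added CPM and the minimum CPM.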

Additional observations from a re-analysis of the deposited data

Results flagged for a closer look

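In 4 listed genes the rule cells stood on opposite sides of the other kept cells of their library on day 32 and day 23. The differences between days were not tested, since each day had 1 library. TFAP2C, a trophoblast and early ectoderm factor, had a log2 ratio of 1.25 on D32 (23.2 CPM in rule cells against 9.20 CPM in the others) and -4.21 on D23 (1.58 CPM against 46.9 CPM). The differentiation inhibitor ID4 had 1.46 on D32 (63.7 CPM against 22.5 CPM) and -1.24 on D23 (31.4 CPM against 75.5 CPM). The keratin KRT19 had -1.95 on D32 (2.81 CPM against 13.7 CPM) and 2.66 on D23 (19.5 CPM against 2.25 CPM). LUM, a matrix proteoglycan that was part of the rule, had 1.25 on D32 (107 CPM against 44.3 CPM) and -1.64 on D23 (11.9 CPM against 39.2 CPM). The other kept cells differed in make-up, since melanocyte-rule cells were 93.2% of kept cells on D32 and 65.8% on D23. On D32 they also held the mesenchymal-rule cells, in which KRT19 was high. What this make-up adds to the signs was not tested.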

How the results depend on the processing

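With M under 2 in place of 5, the share of rule cells was 1.39% (84 cells), and under the other limits tried it lay between 1.75% and 2.03%. With a minimum of 1 CPM, more genes were compared and 908 genes were 4-fold apart from mesenchymal-rule cells and 405 from D23 rule cells. No other alternative moved a count of 4-fold genes by over 1.5 times, and no named ratio changed sign. Of 67 named ratios, 18 moved beyond their counting interval with M under 2, 13 without called doublets, 6 with cells weighted equally and 1, BCAN, with 0.1 CPM added. Chosen after seeing the data, leaving out the mitotic group C gave 593 higher and 312 lower genes and moved 11 ratios. D23 cells under the D32 cell filter gave 272 genes apart. A median-ratio size factor shifted all ratios by at most 0.064 on the log2 scale. No paired analysis was possible because each day had 1 library and the results come from no test. Depth limits genes near the floor of 1.06 CPM in rule cells, and the 5 rule cells of D44 allow levels only.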
